A study of Mus musculus with 24 samples.

Results

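The clustered protocadherins were 61 of the 22926 gene symbols counted in RNA-seq libraries of mouse embryonic stem cells (ESCs), and they were found by symbol alone, with no expression value used in the choice. They comprised 14 lines of the alpha cluster (*Pcdha1* to *Pcdha12*, *Pcdhac1* and *Pcdhac2*), 3 lines named *Pcdha4-g*, *Pcdha6-g* and *Pcdha7-g*, 22 lines of the beta cluster (*Pcdhb1* to *Pcdhb22*) and 22 lines of the gamma cluster. On the NCBIM37 (mm9) build the alpha cluster spans 37089939 to 37347311 of chromosome 18, the beta cluster 37424652 to 37681073 and the gamma cluster 37833989 to 38001527, all on the plus strand.

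The study asked how loss of the Tet dioxygenases, which oxidize methylated cytosine, changes ESCs before and after differentiation. Polyadenylated RNA was sequenced from undifferentiated cells (D0) and from cells grown for 6 days without leukemia inhibitory factor (LIF), the cytokine that holds mouse ESCs in the pluripotent state (D6). Of the 12 libraries of each day, 3 came from WT clones, 3 from clones without Tet1 (Tet1-/-) and 2 each from clones without Tet2 (Tet2-/-), without Tet1 and Tet2 (DKO) and without all of Tet1, Tet2 and Tet3 (TKO). All clones, the WT controls included, descend from 1 feeder-free 129/SVj line with an eGFP reporter at *Pou5f1*, the Oct4 gene, and the knockout alleles are indels made by transient Cas9. The labels name the WT clones O4.1, O4.2 and O4.13 and the knockout clones Tet2_KO_3.10, Tet2_KO_3.11, DKO_5.11, DKO_5.12, TKO_8.4 and TKO_8.12, each with libraries of both days. Tet1-/- clones 2.1 and 2.4 have libraries of both days, whereas clone 2.3 has one of D0 alone and clone 2.2 one of D6 alone. P-values therefore measure the spread between clones of 1 parental line.

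Clustered protocadherins are cadherin-like adhesion molecules of neurons. In the alpha and gamma clusters, each isoform begins with its own large variable exon, which encodes the extracellular, transmembrane and proximal cytoplasmic parts and has its own promoter, and is spliced to small constant exons at the 3′ end of the cluster. Beta genes have a single coding exon and no constant part. Neurons choose A-, B- and alternate alpha isoforms in random combinations that depend on promoter DNA methylation and CTCF, whereas the C-type isoforms (*Pcdhac1*, *Pcdhac2*, *Pcdhgc3*, *Pcdhgc4* and *Pcdhgc5*) are expressed more uniformly.

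Libraries held 18400463 to 37290208 counts. Levels are given as CPM, read counts scaled to a common library size by TMM. A gene with 0 reads could lie as high as 3 reads, or 0.0814 to 0.151 CPM depending on the library, for counting error alone. At D0 the *Tet2* transcript lay at 94.0, 93.6 and 87.9 CPM in WT and at 20.9 and 23.2 CPM in Tet2-/-, and was called lower in Tet2-/- and TKO, while *Tet1* and *Tet3* were not called in any knockout at either day. At D6 *Tet2* lay at 15.9 and 16.6 CPM in Tet2-/- and at 12.3 to 16.0 CPM in WT and was not called, and *Tet1* at D0 lay at 93.4, 126 and 358 CPM in Tet1-/- and at 220 to 431 CPM in WT. The alleles are indels, so that a transcript level does not check the protein. The study reports the indels by sequencing and the loss of protein by Western blot, with blots shown for Tet1 and Tet2. Clone TKO_8.12 stood apart from clone TKO_8.4 at D0, with *Tet1* at 41.7 against 568 CPM. The pluripotency markers lay at a summed 4596 to 5264 CPM in the D0 libraries, and all 8 were detected. Throughout, a line was called where edgeR's quasi-likelihood test gave an adjusted p under 0.05 over all genes tested and the change was over 2-fold.

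Most alpha and gamma lines counted the same reads. In each library, the lowest of the 14 alpha lines held 88.3% to 97.7% of the mean alpha line, and the lowest of the gamma lines held 94.6% to 97.3% of the mean gamma line. The annotation of the build holds 3 exons that start at the same base in most transcripts of each cluster, of 59, 89 and up to 2712 bases in alpha and of 59, 89 and up to 1971 bases in gamma. The *Pcdha4-g*, *Pcdha6-g* and *Pcdha7-g* lines followed the gamma and not the alpha lines, with means over all libraries of 61.3 CPM each, against 0.730 CPM for *Pcdhac1*, the lowest alpha line. Each line was therefore split into a shared part, the lowest line of its cluster in that library, and the own reads of the isoform, the reads beyond that lowest line. Own reads are a lower bound and are not corrected for exon length. Levels of single isoforms were therefore compared between libraries and not between isoforms. Shares of all gamma own reads carry the same length differences and were also compared only between libraries.

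**Figure D1:**
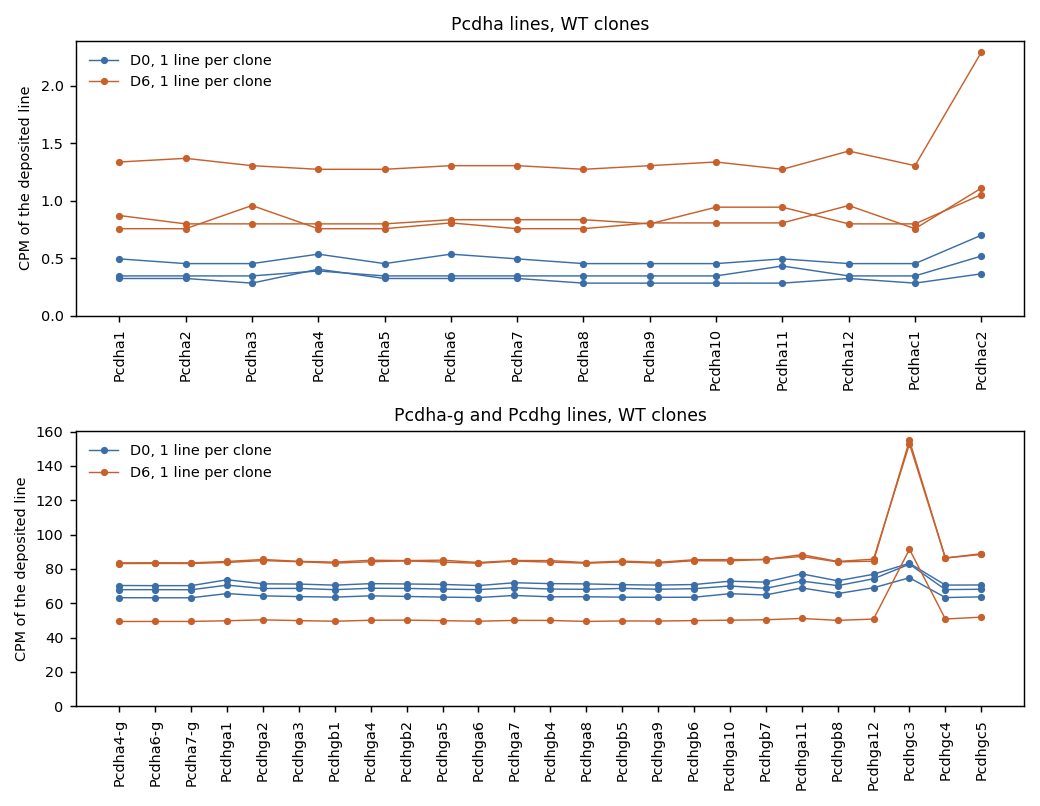
Deposited lines of the alpha cluster (upper panel) and of the -g and gamma lines (lower panel) in CPM on the vertical axis, for the 3 WT clones at D0 (blue) and D6 (orange), joined within a clone. Within a clone the lines run almost level, with *Pcdhgc3* above the other gamma lines and, but for clone O4.1 at D0, no alpha line above *Pcdhac2*, and the D6 alpha lines of every WT clone lie above those of D0.

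The alpha cluster rose between D0 and D6 in WT, Tet1-/- and Tet2-/- and was not called in DKO or TKO. The shared alpha reads, which stand for the output of the whole cluster, lay at 0.283, 0.453 and 0.345 CPM in WT clones O4.1, O4.2 and O4.13 at D0 and at 0.757, 0.799 and 1.27 CPM in the same clones at D6. The D6 levels were all above the D0 levels, and the change was 1.39 ± 0.34 on the log2 scale (SE, n = 3 and 3, adjusted p = 0.00139 in the edgeR quasi-likelihood test). These levels rest on few reads, from 7 to 11 per WT library at D0 and from 15 to 40 at D6. In bulk RNA, a change in the number of cells that express a gene and a change in the RNA per cell cannot be told apart.

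In Tet1-/-, the shared alpha reads rose from 0.279, 0.246 and 0.397 CPM at D0 to 0.871, 1.57 and 1.01 CPM at D6 (log2 fold change 1.89 ± 0.34, adjusted p = 9.55e-05, edgeR). The highest D6 library was clone 2.2, which has no D0 library. In Tet2-/-, clones Tet2_KO_3.10 and Tet2_KO_3.11 rose from 0.512 and 0.409 CPM to 2.04 and 1.74 CPM, and both D6 libraries were above all others of the series (log2 fold change 2.04 ± 0.38, adjusted p = 0.000366). Clones DKO_5.11 and DKO_5.12 went from 0.533 and 0.492 CPM to 0.592 and 0.407 CPM, with a log2 fold change of -0.05 ± 0.42 (adjusted p = 0.928). Clones TKO_8.4 and TKO_8.12 went from 0.543 and 0.453 CPM to 0.492 and 0.749 CPM (0.28 ± 0.42, adjusted p = 0.616). The days overlapped in DKO and TKO and did not overlap in the other genotypes.

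No test of the difference between a knockout and WT passed for the shared alpha reads. Against WT, the change between days differed by -1.44 ± 0.54 in DKO (adjusted p = 0.506), by -1.11 ± 0.54 in TKO (adjusted p = 0.219), by 0.65 ± 0.52 in Tet2-/- (adjusted p = 0.400) and by 0.50 ± 0.49 in Tet1-/- (adjusted p = 0.853). At D6 the Tet2-/- level was 0.99 ± 0.36 above WT on the log2 scale, with an adjusted p of 0.0619. A call in one genotype and not in another is thus not shown to differ between them. In the deposited table, all 14 alpha lines were called higher at D6 in WT, Tet1-/- and Tet2-/-, where 20.7%, 19.9% and 12.7% of all genes tested were called higher. These 14 calls count nearly the same reads 14 times. The median of the 14 alpha log2 fold changes was 1.40, 1.92 and 2.02, against 0.01 over all genes in WT and less than that in size in the other genotypes. Every alpha call held with any 1 library left out, except that *Pcdha4* in WT was under 2-fold (0.83) without clone O4.13 at D6. In DKO and TKO, 0 of 14 alpha lines were called higher, none had an unadjusted p under 0.05, and DESeq2 also called 0, where edgeR called 18.6% and 16.8% of all genes higher.

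**Figure D2:**
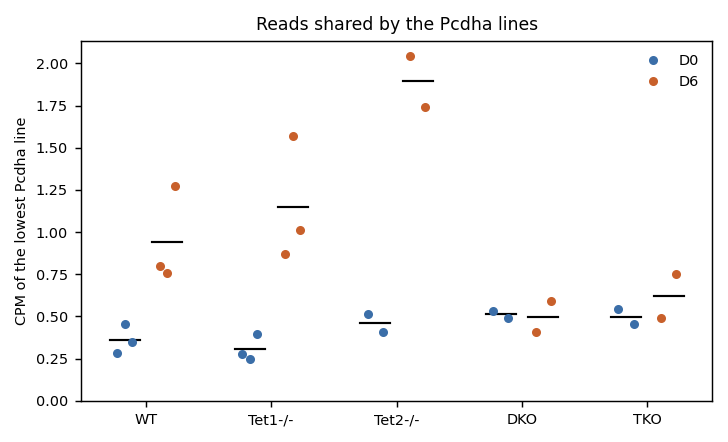
Reads shared by all alpha lines (CPM, vertical axis) in each library by genotype, D0 in blue and D6 in orange, with a bar at the group mean. Every D6 library of WT, Tet1-/- and Tet2-/- lies above the D0 libraries of its genotype, and the days overlap in DKO and TKO.

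Between days, 4 of 11 tested neural markers were called higher and 4 lower in WT, Tet1-/- and DKO, 4 higher and 3 lower in TKO, and 5 higher and 0 lower in Tet2-/-, where 12.7% to 20.7% of all genes were called higher and 6.44% to 13.3% lower. Of the 11, 1 passed the filter on low counts only with D6 libraries. At D6, 4 of 11 tested neural markers were called higher in Tet2-/- than in WT, with 4.81% of all genes called higher. They were *Tubb3* (log2 fold change 3.0998), *Pax6* (2.84), *Sox1* (2.39) and *Elavl3* (2.18), genes of neural progenitors and young neurons. *Tubb3* in Tet2-/- lay at 221 and 276 CPM at D0 and at 109 and 126 CPM at D6, and in WT at 124 to 210 CPM at D0 and at 6.86 to 22.6 CPM at D6, and its change between days was -1.08 in Tet2-/- (adjusted p = 0.0909) and -3.68 in WT (adjusted p = 1.24e-06). *Sox1* in Tet2-/- lay at 5.80 and 8.998 CPM at D0 and at 7.29 and 9.07 CPM at D6, against 2.80 to 4.88 and 1.31 to 1.92 CPM in WT. *Nes*, another progenitor marker, lay at 75.5 and 66.4 CPM in Tet2-/- and at 71.2 to 116 CPM in WT at D6 (log2 fold change -0.49, adjusted p = 0.151). At D6 the 14 neural markers of the list summed to 405 to 412 CPM in Tet2-/-, 371 to 382 in DKO, 278 to 345 in TKO, 264 to 334 in WT and 280 to 344 in Tet1-/-, and none was at 0 in a whole group. At D0 the same sum was 393 to 603 CPM, with the neuronal marker *Dcx* at 0 in every group but TKO and *Neurog1* at 0 in TKO. The part of neural cells in the alpha level was not tested.

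Among single alpha isoforms, own reads were few. All alpha isoforms together had 5 to 58 own reads per library. *Pcdhac2*, a C-type isoform, had 2, 6 and 4 own reads in WT clones O4.1, O4.2 and O4.13 at D0 and 7, 7 and 32 at D6, and the high library was clone O4.13. In Tet1-/- it had 5, 3 and 0 reads at D0 and 10, 33 and 7 at D6, where it was called higher with a log2 fold change of 2.28 ± 0.82 (adjusted p = 0.0214). *Pcdhac2* passed the filter on low counts for own reads within D6 and not within D0, so that the D6 libraries, where it is high, let it into this test, and without a filter the change was 2.29 (adjusted p = 0.0196). The call rested on clone 2.2, which had the 33 reads, since the change without it was 1.24 (adjusted p = 0.210), and the call was also lost without the D0 library of clone 2.4 (1.74, adjusted p = 0.0833) and with clone as a block (1.36, adjusted p = 0.243). *Pcdhac1*, the other C-type alpha isoform, had at most 2 own reads in any library. As deposited, *Pcdhac2*, *Pcdha12* and *Pcdha7* had the highest mean levels of the alpha lines, not scaled by length, at 0.986, 0.786 and 0.764 CPM, and *Pcdhac1* the lowest.

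In the gamma cluster, the shared reads were not called between days in any genotype, while several isoforms were. Shared gamma reads lay at 70.2, 67.9 and 63.2 CPM in WT clones O4.1, O4.2 and O4.13 at D0 and at 83.5, 49.4 and 83.1 CPM at D6. Clone O4.2 was low and the other two were high at D6, so that the days overlapped and the log2 fold change was 0.10 ± 0.20 (adjusted p = 0.672). In Tet2-/- the level was 71.5 and 67.7 CPM at D0 and 41.9 and 43.2 CPM at D6, which is a change of -0.71 ± 0.25 with an adjusted p of 0.03002 but under 2-fold. The change was -0.51 in TKO (adjusted p = 0.0985), -0.16 in DKO (adjusted p = 0.605) and -0.05 in Tet1-/- (adjusted p = 0.848). Against WT at D6, Tet2-/- was lower by 0.76 ± 0.28 on the log2 scale (adjusted p = 0.0635).

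The deposited gamma lines carried mostly this shared level. Of the 22 gamma and 3 -g lines, edgeR and DESeq2 each called 0 in either direction between D0 and D6 in every genotype, where edgeR called 12.7% of all genes higher in Tet2-/- to 20.7% in WT, and 6.44% lower in Tet2-/-, 8.63% in TKO, 10.6% in DKO, 11.2% in Tet1-/- and 13.3% in WT. At an unadjusted p under 0.05, *Pcdhgc3* was higher in WT, 5 gamma lines were lower in TKO, and 24 lines, all but *Pcdhgc3*, were lower in Tet2-/-. Those 24 lines count nearly the same reads, as the alpha lines do.

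The C-type gamma isoforms rose in WT. *Pcdhgc3* is known for a broad expression outside the nervous system. Its own reads lay at 13.05, 14.9 and 11.7 CPM in WT clones O4.1, O4.2 and O4.13 at D0 and at 69.3, 42.0 and 71.7 CPM at D6. All D6 levels were above all D0 levels, and the change was 2.21 ± 0.30 on the log2 scale (adjusted p = 4.26e-06).

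*Pcdhgc4*, an isoform needed for the survival of neurons, had own reads at 0.323, 0.0823 and 0.130 CPM in the same clones at D0 and at 2.82, 1.45 and 3.22 CPM at D6 (log2 fold change 3.76 ± 0.59, adjusted p = 1.85e-05). *Pcdhgc5*, the last isoform of the cluster, lay at 0.404, 0.288 and 0.518 CPM at D0 and at 4.89, 2.54 and 5.73 CPM at D6 (3.43 ± 0.60, adjusted p = 6.38e-05). For each of the 3 isoforms the days did not overlap, and WT clone O4.2 was the lowest at D6. *Pcdhgc4* and *Pcdhgc5* rest on 2 to 12 reads per WT library at D0. *Pcdhgc4* passed the filter on low counts within D6 and not within D0, so that its tests between days and its interactions rest on a line admitted by the libraries where it is high. Without a filter, its change was 3.77 in WT (adjusted p = 4.89e-06) and 2.32 in Tet1-/- (adjusted p = 0.000596), and the differences from WT in its change between days were -4.03 in Tet2-/- (adjusted p = 0.00794) and -3.43 in TKO (adjusted p = 0.0368).

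In Tet1-/- the same 3 isoforms were called higher at D6, with wide spread between clones. *Pcdhgc3* own reads were 16.5, 16.0 and 16.6 CPM at D0 and 36.3, 80.7 and 24.6 CPM in clones 2.1, 2.2 and 2.4 at D6 (log2 fold change 1.53 ± 0.30, adjusted p = 0.000200). Clone 2.2 was the highest for all 3 isoforms. Without clone 2.2 the *Pcdhgc3* change was 0.95 (adjusted p = 0.000758), and with clone as a block, which compares only clones 2.1 and 2.4 between days, it was 0.86 (adjusted p = 0.0138), both under 2-fold. *Pcdhgc4* rose by 2.31 ± 0.54 (adjusted p = 0.00105) and *Pcdhgc5* by 2.77 ± 0.60 (adjusted p = 0.000580) on the log2 scale.

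In Tet2-/-, none of the 3 C-type gamma isoforms was called between days. *Pcdhgc3* own reads were 15.7 and 17.003 CPM in clones Tet2_KO_3.10 and Tet2_KO_3.11 at D0 and 19.4 and 16.9 CPM at D6, with overlap between the days (log2 fold change 0.15 ± 0.36, adjusted p = 0.769). *Pcdhgc4* lay at 0.299 and 0.380 CPM at D0 and 0.346 and 0.209 CPM at D6 (-0.29 ± 0.74, adjusted p = 0.782). *Pcdhgc5* lay at 0.555 and 0.117 CPM at D0 and 0.806 and 0.558 CPM at D6 (1.13 ± 0.80, adjusted p = 0.276).

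In DKO and TKO some of the C-type gamma isoforms were called. In DKO, *Pcdhgc3* own reads rose from 17.6 and 16.4 CPM to 41.8 and 39.1 CPM in clones DKO_5.11 and DKO_5.12 (log2 fold change 1.25 ± 0.36, adjusted p = 0.00661), and *Pcdhgc5* rose by 3.16 ± 0.81 (adjusted p = 0.00301), while *Pcdhgc4* changed by 1.53 ± 0.73 (adjusted p = 0.0812). In TKO, *Pcdhgc5* was the C-type isoform called, at 0.460 and 0.206 CPM at D0 and 1.11 and 3.05 CPM at D6 in clones TKO_8.4 and TKO_8.12 (2.59 ± 0.77, adjusted p = 0.00874). That call was lost without clone TKO_8.12 at D0 (2.12, adjusted p = 0.0815) or at D6 (1.74, adjusted p = 0.114). *Pcdhgc3* own reads in TKO were 28.1 and 19.3 CPM at D0 and 28.2 and 31.6 CPM at D6 (0.33 ± 0.36, adjusted p = 0.453).

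The difference from WT in the change between days was tested directly. In Tet2-/- it was -2.06 ± 0.47 for *Pcdhgc3* (adjusted p = 0.00917) and -4.05 ± 0.96 for *Pcdhgc4* (adjusted p = 0.0111) on the log2 scale, where 5.18% of the genes tested were called lower and 3.55% higher. The *Pcdhgc3* difference passed with any 1 of the 24 libraries left out, and the *Pcdhgc4* difference had an adjusted p of 0.0597 without the D0 library and 0.0512 without the D6 library of clone Tet2_KO_3.11. In TKO the differences were -1.88 ± 0.46 for *Pcdhgc3* (adjusted p = 0.0237) and -3.42 ± 0.96 for *Pcdhgc4* (adjusted p = 0.0418), with 1.77% of genes called lower and 1.85% higher. Among deposited lines, *Pcdhgc3* in Tet2-/- was the single member called in this test, where 5.13% of all genes were lower and 3.54% higher, and in TKO, where 1.74% were lower and 1.84% higher, edgeR and DESeq2 called 0 members and 10 were lower at an unadjusted p under 0.05, against 25 in Tet2-/- and 14 in DKO. Lines of the alpha or of the gamma cluster count nearly the same reads, so these counts are not separate results. For the shared reads, the unadjusted edgeR p of this test was 0.0205 for gamma in Tet2-/- and 0.0150 for alpha in DKO. Both TKO calls depended on single libraries of several genotypes: *Pcdhgc3* was lost without WT clone O4.13 at either day, WT clone O4.1 at D6, or clone TKO_8.4 at either day (adjusted p from 0.0539 to 0.0701), and *Pcdhgc4* was lost in 17 of the 24 fits with 1 library left out (adjusted p from 0.0505 to 0.120). At D0, *Pcdhgc3* own reads in TKO were 0.84 above WT on the log2 scale (adjusted p = 0.0110, under 2-fold), which enters its TKO difference. In Tet1-/- and DKO the same test called 0% of all genes in either direction and 0 gamma isoforms, also with DESeq2, and at an unadjusted p under 0.05 there were 0 in Tet1-/- and 2 in DKO (*Pcdhga5* and *Pcdhgc4*).

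At D6, Tet2-/- differed from WT in 4 gamma isoforms, the 3 C-type isoforms lower and *Pcdhga1* higher, where 9.34% of genes were called lower and 5.02% higher. *Pcdhgc3* was lower by 1.75 ± 0.42 on the log2 scale (adjusted p = 0.0144). *Pcdhgc4* was at -3.13 ± 0.70 (adjusted p = 0.0113) and *Pcdhgc5* at -2.67 ± 0.70 (adjusted p = 0.0190). None of these 4 calls remained when either Tet2-/- clone was left out, which leaves 1 sample assumed to vary like the other groups, with log2 fold changes from -3.57 to -1.67 for the C-type isoforms and adjusted p of all 4 from 0.0704 to 0.142. The *Pcdhgc5* call was also lost without WT clone O4.13 (adjusted p = 0.0572). The *Pcdhgc3* line as deposited was the single gamma line called, at -1.15 ± 0.33 (adjusted p = 0.0278), where 9.45% of all genes were called lower, and it was lost without either Tet2-/- clone or without WT clone O4.1 or O4.13 (adjusted p from 0.0784 to 0.154).

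**Figure D3:**
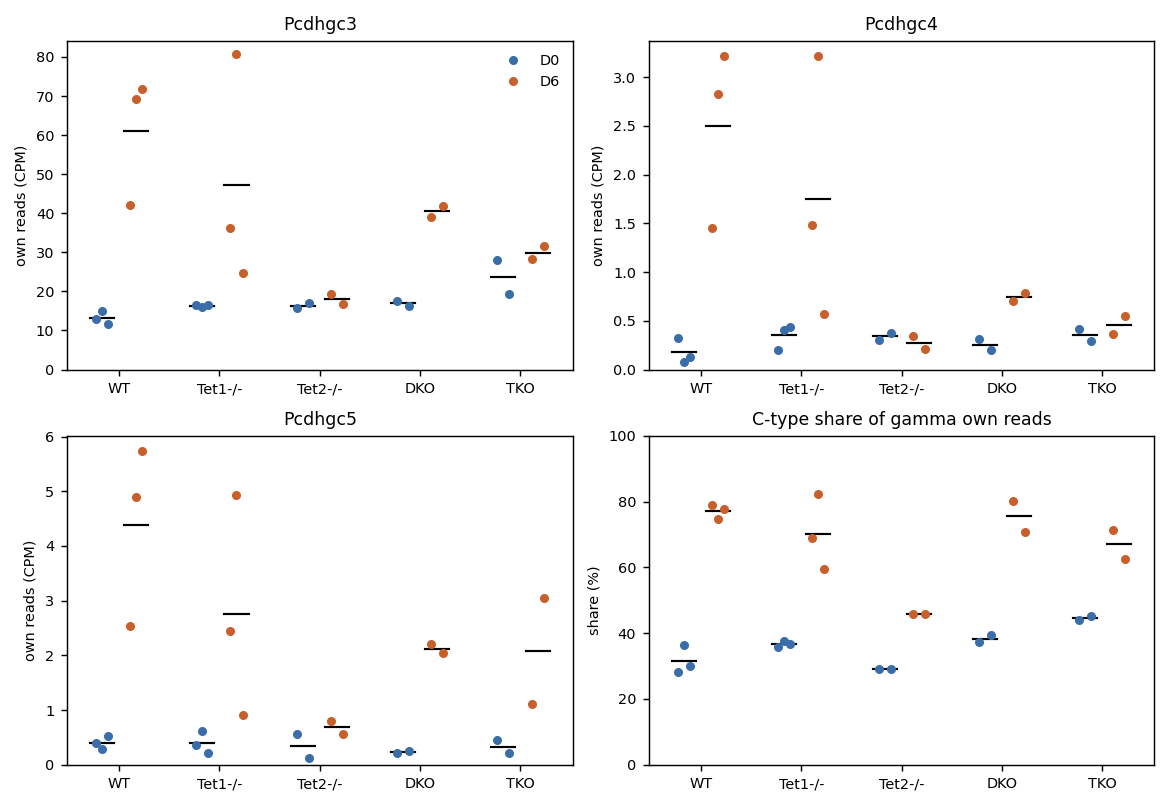
Own reads of *Pcdhgc3*, *Pcdhgc4* and *Pcdhgc5* (CPM, vertical axis) and the C-type share of all gamma own reads (percent), per library by genotype, D0 in blue and D6 in orange, with a bar at the group mean. The Tet2-/- libraries at D6 stay beside their D0 libraries for *Pcdhgc3* and *Pcdhgc4*, and their C-type share of 45.7% and 45.8% is below that of every other D6 library.

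As a share of all gamma own reads, which does not depend on scaling between libraries, the C-type isoforms made up 28.3% to 45.4% at D0. At D6 the share was 45.7% and 45.8% in Tet2-/-, 62.5% and 71.5% in TKO, 70.9% and 80.3% in DKO, 74.6%, 77.8% and 78.9% in WT, and 59.6%, 69.0% and 82.4% in Tet1-/-. Every D6 library was above every D0 library, and the Tet2-/- libraries were the lowest of D6. In Tet2-/- the C-type own reads lay at 16.6 and 17.5 CPM at D0 and at 17.6 and 20.6 CPM at D6, while those of A and B type went from 40.3 and 42.5 CPM to 24.4 and 20.9 CPM, so that the share moved mostly with the A- and B-type reads. In WT the C-type own reads went from 12.3 to 15.3 CPM at D0 to 46.0 to 80.6 CPM at D6 and those of A and B type from 26.7 to 35.0 CPM to 12.3 to 26.2 CPM. *Pcdhgc3* alone held 69.5% ± 2.46 (SD, n = 3) of the own reads in WT at D6 and 30.3% ± 4.61 (SD, n = 3) at D0.

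Markers of endoderm and mesoderm went in part with the C-type isoforms. At D6, 4 of 5 tested endoderm markers and 5 of 8 tested mesoderm markers were called lower in Tet2-/- than in WT, with 9.45% of all genes called lower. Between days, 4 endoderm markers were called higher in WT, Tet1-/- and DKO and 1 in Tet2-/- and TKO, where 12.7% to 20.7% of all genes were called higher, and 1 (*Sox7*) was called lower in all 5 genotypes. Of the 5 tested, 1 passed the filter on low counts only with D6 libraries. Mesoderm markers were also called higher where neither *Pcdhgc3* nor *Pcdhgc4* was called, 5 of 8 in Tet2-/- and 6 of 8 in TKO, with median log2 fold changes of 2.42 and 3.67. In WT and Tet1-/- 8 of 8 mesoderm markers were called higher and in DKO 7, but 3 of the 8 passed the filter on low counts only with D6 libraries. At D6 the 6 endoderm markers summed to 9.80 to 11.3 CPM in Tet2-/-, 17.01 to 17.08 in TKO, 38.6 to 57.6 in DKO, 56.6 to 260.1 in WT and 44.3 to 152 in Tet1-/-. For the 8 mesoderm markers the sums were 31.5 to 39.5 CPM in Tet2-/-, where *Hand2* was at 0, 109 to 364 in TKO, 173 to 248 in DKO, 184 to 537 in WT and 146 to 343 in Tet1-/-. At D0 both sums were at most 13.1 CPM. The pluripotency markers summed to 2089 to 2266 CPM in Tet2-/- at D6 and to 736 to 1682 in the other genotypes. The part of these cell types in the C-type level was not tested.

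Of the A- and B-type gamma isoforms, 4 fell between days in WT. *Pcdhga12*, the A-type isoform just before the C-type exons, had own reads at 6.62, 6.38 and 5.83 CPM in WT clones O4.1, O4.2 and O4.13 at D0 and at 2.17, 1.42 and 1.37 CPM at D6 (log2 fold change -1.94 ± 0.33, adjusted p = 5.43e-05). *Pcdhga1*, the first isoform of the cluster, went from 3.43, 2.67 and 2.46 CPM to 0.807, 0.436 and 0.637 CPM (-2.20 ± 0.40, adjusted p = 9.62e-05). For both isoforms the days did not overlap.

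*Pcdhgb8*, a transcribed pseudogene in RefSeq that lies next to *Pcdhga12*, went from 2.83, 2.39 and 2.42 CPM to 0.807, 0.653 and 0.955 CPM in the same WT clones (-1.65 ± 0.35, adjusted p = 0.000413). *Pcdhga8* fell by 2.25 ± 0.67 on the log2 scale (adjusted p = 0.00608) but rests on 1 to 6 own reads per WT library at D6. The other 14 tested A- and B-type isoforms were not called in WT and had log2 fold changes from -0.78 for *Pcdhga10* to 1.34 for *Pcdhgb6*.

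*Pcdhga12* and *Pcdhgb8* were called lower at D6 in all 5 genotypes. In Tet2-/-, *Pcdhga12* went from 6.27 and 4.91 CPM to 2.51 and 1.57 CPM (-1.45 ± 0.40, adjusted p = 0.00726) and *Pcdhgb8* from 3.37 and 3.04 CPM to 0.921 and 1.12 CPM (-1.65 ± 0.41, adjusted p = 0.00369). In TKO, *Pcdhgb8* lay at 2.26 and 0.536 CPM at D0 and at 0.584 and 0.399 CPM at D6, and its change of -1.46 became -0.09 without the D0 library of clone TKO_8.4 and lost the call without clone TKO_8.12 at D6 (adjusted p = 0.0913). The *Pcdhga12* call was lost in Tet2-/- without clone Tet2_KO_3.10 at D0 or clone Tet2_KO_3.11 at D6 (0.0599 and 0.0865) and in DKO without clone DKO_5.12 at D6 (0.0541), and the *Pcdhgb8* call in Tet2-/- without clone Tet2_KO_3.10 at D6 (0.0511). *Pcdhga10*, an A-type isoform upstream of them, was called lower in the 4 knockouts, with log2 fold changes from -1.82 to -1.18, each lost without 1 library of that knockout (adjusted p from 0.0555 to 0.110), and in WT it went from 2.59, 2.18 and 2.38 CPM to 1.87, 0.762 and 1.56 CPM. Whether that change differs between WT and a knockout was tested by the interaction, which called *Pcdhga10* in no genotype.

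Of the 22 gamma isoforms, 21 had enough own reads to test between days, *Pcdhgc4* and *Pcdhgb1* through D6 libraries. Among them, TKO had 1 higher and 7 lower at D6, DKO 2 and 6, Tet2-/- 0 and 4, WT 3 and 4, and Tet1-/- 3 and 5. Among all genes fitted with the own reads, TKO had 16.8% called higher and 8.7% lower, DKO 18.6% and 10.7%, Tet2-/- 12.6% and 6.47%, WT 20.7% and 13.3%, and Tet1-/- 19.8% and 11.2%. DESeq2 also called 0 gamma isoforms higher in Tet2-/-, and none was higher at an unadjusted p under 0.05. The median own-read change of the 21 isoforms was -0.66 in Tet2-/-, -0.61 in DKO, -0.22 in TKO, -0.03 in Tet1-/- and 0.14 in WT. Every gamma isoform called higher between days was of C type, and every one called lower was of A or B type, in every genotype that had such calls. In DKO the count of lower isoforms was 1 without clone DKO_5.12 at D6 and 2 without clone DKO_5.11 at D0, and in TKO it was 2 without clone TKO_8.4 at D0 and 4 without it at D6. In Tet2-/- it was 2 without either clone at D6. With clone as a block, 3 lines were higher and 3 lower in Tet1-/-, the shared alpha reads included.

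**Figure D4:**
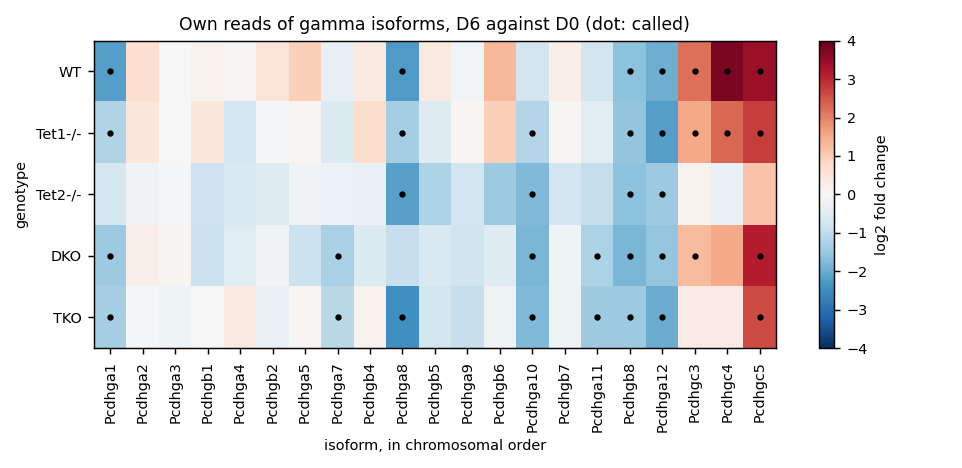
Log2 fold change of own reads at D6 against D0 (colour scale from -4 to 4) for the 21 tested gamma isoforms in chromosomal order on the horizontal axis and the genotypes on the vertical axis, with a dot where the change was called. Called increases lie in the C-type isoforms at the right end and called decreases in A- and B-type isoforms, several of them directly before the C-type isoforms.

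*Pcdhga1* was higher in Tet2-/- than in WT. At D6 its own reads lay at 3.28 and 2.72 CPM in Tet2-/-, above 0.436 to 0.807 CPM in WT and all other D6 libraries (log2 fold change 2.27 ± 0.50, adjusted p = 0.0108). *Pcdhga1* was also above WT at D6, without a call, in Tet1-/- (1.11, adjusted p = 0.377), TKO (0.75, adjusted p = 0.410) and DKO (0.70, adjusted p = 0.566). Its levels at D0 were 4.05 and 5.43 CPM in Tet2-/- and 2.46 to 3.43 CPM in WT. The change between days in Tet2-/- was -0.66 ± 0.42 (adjusted p = 0.225), and its difference from WT was 1.54 ± 0.58 (adjusted p = 0.0743). *Pcdhga6*, the gamma isoform with the lowest line, had at most 7 own reads in any library and *Pcdhga11*, among the highest, went from 5.89 ± 0.91 CPM at D0 to 3.57 ± 1.58 CPM at D6 in WT (SD, n = 3 each) and was called lower in DKO (-1.26 ± 0.37, adjusted p = 0.00722) and TKO (-1.41 ± 0.37, adjusted p = 0.00423). The *Pcdhga11* call was lost in DKO without clone DKO_5.11 at D0 (adjusted p = 0.0659) or DKO_5.12 at D6 (0.1), and in TKO without clone TKO_8.4 at D0 (0.0574). Its changes of -0.97 in Tet2-/- (adjusted p = 0.0369) and -0.73 in WT (adjusted p = 0.0357) were under 2-fold. *Pcdhga7* was called lower between days in DKO (-1.29 ± 0.42, adjusted p = 0.0134) and TKO (-1.11 ± 0.41, adjusted p = 0.0311). The DKO call was lost without clone DKO_5.11 at D0 (-0.96) or DKO_5.12 at D6 (-0.68). The TKO call was lost without any single TKO library and with library totals (-0.93).

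At D0, edgeR and DESeq2 called 0 deposited members in each knockout, and 1 had an unadjusted p under 0.05, *Pcdhb14* in TKO. Over all genes, TKO had 1.03% called higher and 2.12% lower, Tet2-/- 0.816% and 2.37%, DKO 0.0138% and 0.0208%, and Tet1-/- 0% and 0.00692%. With own reads these shares were 0.838% higher in Tet2-/-, 1.04% higher in TKO, 0.0139% higher in DKO and 0.00693% lower in Tet1-/-. In Tet2-/- at D0, 16 of the 19 tested gamma isoforms had own reads above WT, with a median log2 fold change of 0.52 against -0.01 over all genes of the deposited table, and 6 of them had an unadjusted p under 0.05. In TKO 12 of 19 were above WT (median 0.23, 3 with an unadjusted p under 0.05), in Tet1-/- 12 (median 0.07, 0 such) and in DKO 8 (median -0.04, 0 such). No share of all genes at that unadjusted threshold was taken, so these counts do not show a trait of the gamma isoforms. The own reads of all A- and B-type isoforms together lay at 40.3 and 42.5 CPM in Tet2-/- and at 26.7 to 35.0 CPM in WT, without overlap. Of single isoforms, *Pcdhga2* lay at 2.18 and 2.31 CPM in Tet2-/- and at 1.05, 0.741 and 1.12 CPM in WT (log2 fold change 1.19 ± 0.28, adjusted p = 0.0256), without overlap. *Pcdhgb5* lay at 1.24 and 1.67 CPM in Tet2-/-, 1.63 and 1.44 CPM in TKO and 0.345 to 0.782 CPM in WT, and was called in Tet2-/- (1.34 ± 0.35, adjusted p = 0.0351) and in TKO (1.43 ± 0.36, adjusted p = 0.0301).

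These D0 calls were not firm. Both Tet2-/- calls were lost without either Tet2-/- clone (adjusted p from 0.126 to 0.240) or without WT clone O4.13 or O4.2 (0.0563 to 0.118), and that of *Pcdhgb5* also without WT clone O4.1 (0.0587) or Tet1-/- clone 2.3 or 2.4 (0.0504 and 0.0531). The *Pcdhgb5* call in TKO was lost without WT clone O4.1 or O4.13 (0.0685 and 0.102) and in a fit of WT and TKO alone (0.193). With the label number as a block, *Pcdhgb5* had an adjusted p of 0.0697 in Tet2-/- and 0.0686 in TKO.

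At D6, edgeR and DESeq2 called 0 deposited members in Tet1-/-, DKO and TKO, where edgeR called 0% of all genes in each direction. At an unadjusted p under 0.05, 9 members were lower in DKO, 3 in TKO and 0 in Tet1-/-, and in Tet2-/- 25 were lower and 14 higher, most of them alpha and gamma lines that count shared reads. In Tet2-/-, *Pcdha4* was the single member called higher, by 1.04 ± 0.36 (adjusted p = 0.0499), where 4.81% of all genes were called higher, and it shares nearly all its reads with the alpha lines that were not called. That call was lost with clones blocked by label number (adjusted p = 0.0617) and in 11 of the 12 fits with 1 D6 library left out, those of every WT and Tet2-/- library among them (adjusted p from 0.0503 to 0.213).

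The beta genes were barely transcribed. Their 22 lines together held 22 to 131 counts per library, 9 to 21 of them had at least 1 count, and 4 passed the filter on low counts over all libraries (*Pcdhb2*, *Pcdhb14*, *Pcdhb17* and *Pcdhb22*). Per kilobase of exon, *Pcdhb22* led in WT at D6 with 0.357 ± 0.163 CPM per kb and *Pcdhb17* at D0 with 0.174 ± 0.065 CPM per kb (SD, n = 3). *Pcdhb9* was the lowest, with 2 counts over all 24 libraries.

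*Pcdhb22*, the last gene of the cluster, lay at 0.444, 0.288 and 0.173 CPM in WT clones O4.1, O4.2 and O4.13 at D0 and at 1.61, 0.617 and 1.05 CPM at D6 (log2 fold change 1.81 ± 0.56, adjusted p = 0.00774), with no overlap between days. *Pcdhb2* had 0 reads in each WT library at D0 and 1, 3 and 6 at D6, so that both groups were near the limit of detection and no fold is given. In Tet1-/- it had 2 reads in each D0 library and 6, 10 and 11 at D6 (1.75 ± 0.65, adjusted p = 0.0258), a call that was lost in the block by clone (1.55, adjusted p = 0.191), with DESeq2 (adjusted p = 0.0863), and without any one of the D0 libraries or clone 2.4 at D6 (0.0573 to 0.0663). *Pcdhb2* passed the filter on low counts within D6 and not within D0, so that the D6 libraries, where it is high, let it into its tests between days. Its 2 reads per D0 library in Tet1-/- are also near the limit of detection, so the size of that change is uncertain. *Pcdhb14* passed within D0 and not within D6.

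*Pcdhb17* and *Pcdhb14*, the members called lower between days in the deposited table, were called in TKO alone, where 8.63% of all genes were called lower. *Pcdhb17* had 11 and 36 reads in clones TKO_8.4 and TKO_8.12 at D0 and 6 and 0 at D6 (log2 fold change -3.10 ± 1.00, adjusted p = 0.0148). *Pcdhb14* had 8 and 16 reads at D0 and 3 and 0 at D6 (-3.06 ± 1.02, adjusted p = 0.0184). *Pcdhb14* was let into this test by the D0 libraries, where it is high in TKO, and without a filter the change was -3.07 (adjusted p = 0.021). Both calls rested on clone TKO_8.12, since without its D0 or its D6 library the adjusted p lay between 0.0972 and 0.187, and the interaction of TKO and day was not called for either gene.

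**Figure D5:**
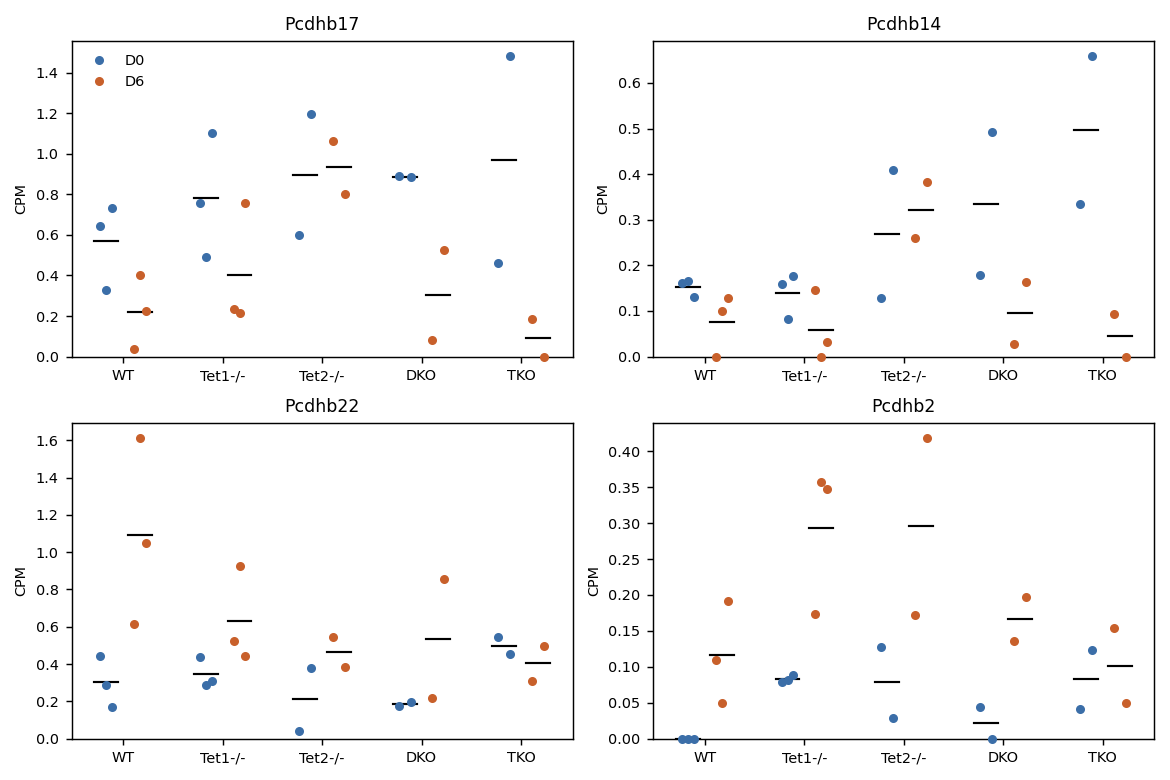
*Pcdhb17*, *Pcdhb14*, *Pcdhb22* and *Pcdhb2* (CPM, vertical axis) in each library by genotype, D0 in blue and D6 in orange, with a bar at the group mean. A level near 0.1 CPM equals about 3 reads, so that most *Pcdhb14* and *Pcdhb2* points lie near the limit of detection.

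Genes that regulate the clusters or act with them were read from lists. Of 10 genes of chromosome architecture, among them *Ctcf*, whose protein pairs protocadherin promoters with their enhancers, and the cohesin subunits, 1 was called higher between days in each genotype, where 12.7% to 20.7% of all genes were called higher. It was *Stag2*, a cohesin subunit, with log2 fold changes from 1.31 in TKO to 1.60 in Tet2-/-.

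Of 11 genes of DNA methylation and silencing, 1 was called higher between days in each genotype, against 12.7% to 20.7% of all genes. It was *Dnmt3b*, a de novo methyltransferase that methylates protocadherin promoters, with 1.63 in WT and 2.34 in Tet2-/- on the log2 scale. *Dnmt3l*, its cofactor, fell in WT by 2.18 and was 1.45 higher in Tet2-/- than in WT at D6 (adjusted p = 0.0296). In that comparison at D6, 4.81% of all genes were called higher. *Trim28*, a corepressor, was called lower in WT (-1.16), Tet1-/- (-1.30), DKO (-1.38) and TKO (-1.25). Of the 11 genes, 2 were called lower between days in WT and Tet1-/-, 1 in DKO and TKO and 0 in Tet2-/-. Over all genes, 6.44% to 13.3% were called lower. At D0, 1 of the 11 was called lower in TKO, where 2.12% of all genes were.

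The non-clustered protocadherins, which stand alone in the genome, included 12 genes of the list, of which 8 were tested. Of these, 5 were called higher at D6 in WT and 6 in each knockout, where 12.7% to 20.7% of all genes were called higher, but 5 of the 8 passed the filter on low counts only with D6 libraries, so that the count of rises is set in part by the filter. The 3 that also passed within D0 were *Pcdh1* and *Pcdh8*, called higher between days in all 5 genotypes, and *Pcdh19*, called in none. *Pcdh8* rose by 4.27 in WT and 5.31 in Tet2-/-, and *Pcdh1* by 2.33 and 3.00 on the log2 scale. *Pcdh18*, with 7.38 and 5.81, is among the 5 that D6 libraries let into the test, so its rise rests on that filter. At D6, *Pcdh7* was lower in Tet2-/- than in WT (-4.69, adjusted p = 0.00625) and *Pcdh17* higher (2.82, adjusted p = 0.00724). These were the calls among the 8 tested, where 9.45% of all genes were called lower and 4.81% higher.

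Of 12 signalling partners, 3 were called higher in WT between days (*Gja1*, *Wasf1* and *Ret*), where 20.7% of all genes were called higher and 13.3% lower. *Wasf1*, an actin regulator of the WAVE complex that binds protocadherin tails, rose by 1.13 in WT and 1.34 in Tet1-/-. Of 17 tested genes beside the clusters, against the same shares, 1 was higher (*Arap3*, 2.32) and 2 lower (*Taf7*, -1.45, and *Wdr55*, -1.06) between days in WT. For *Taf7*, a subunit of a general transcription factor, the change in Tet2-/- differed from that in WT by 1.27 (adjusted p = 0.00187), and for *Arap3* by -1.19 (adjusted p = 0.0207). These were the calls among the 17 in that test, where 3.54% of all genes were called higher and 5.13% lower.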

How the data were processed

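The authors mapped paired-end reads from polyadenylated RNA to mm9 with STAR 2.5.1. They deposited whole-number read counts per RefSeq transcript for each day, named by symbol, not normalized and not pooled. The deposited tables are named for featureCounts, whose version, strand setting and treatment of shared exons are not given in the sources used here, and the library kit does not mark strand, so that overlapping or antisense genes cannot be told apart. Where a symbol had several lines (4911 of 22926 symbols, no member among them), only its first was kept.

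Fits used R 4.3.3 and edgeR 4.0.16 (TMM scaling, filterByExpr with a minimum count of 10, quasi-likelihood F-test, 1 coefficient per group) within D0 (14456 genes), within D6 (15435) and over all 24 libraries (15639, for changes between days and interactions), with Benjamini-Hochberg adjustment over all genes tested. CPM used the TMM scaling of all 24 libraries. Of 61 members, 42, 42 and 43 passed the filter. The table with own and shared reads (14438, 15420 and 15624 genes) was made after the shared reads were seen. The code was tested on simulated data. Alternatives were DESeq2 1.42.0, other scalings, no filter, summed or highest lines, a block, fits of 2 genotypes, and leaving out each library.

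Members named were those called, C-type members, and the 3 highest and the lowest of each cluster, and listed genes those with the largest change. Members and lists were chosen with earlier results of these data known. Clones are named in the labels, so the block between days was the clone: deviations of the same clone at D0 and D6 correlated at 0.0813 to 0.193 (10 of 11 over 0.1). In Tet2-/-, DKO and TKO, with 2 clones each, both clones give the same correlation by construction, so the 11 values are not independent. The DKO clone written without its point in a D6 label was read as the D0 clone with those digits. Spike-in scaling was not repeated here. Gene positions are from GENCODE vM1.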

Additional observations from a re-analysis of the deposited data

Results flagged for a closer look

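The change between D0 and D6 differed from that of WT, by the interaction test, in 5 results. For the *Pcdhgc3* line as deposited, the Tet2-/- change was lower by 1.23 on the log2 scale (-1.23, adjusted p = 0.0309, edgeR), and this was lost without any one of 8 libraries of WT or Tet2-/- (adjusted p from 0.0521 to 0.103). For own reads of *Pcdhgc3* the difference was -2.06 in Tet2-/- and -1.88 in TKO. For own reads of *Pcdhgc4* it was -4.05 in Tet2-/- and -3.42 in TKO. WT *Pcdhgc4* rests on 2 to 8 own reads per library at D0, and Tet2-/- and TKO had 6 to 12 at D6.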

How the results depend on the processing

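Depth limits the alpha and beta clusters most, since a library held 6 to 71 shared alpha reads and 22 to 131 beta reads. No result changed its direction. The shared alpha calls in WT, Tet1-/- and Tet2-/- held under every alternative run, and the *Pcdhgc3*, *Pcdhgc4* and *Pcdhgc5* calls between days in WT held with any 1 library left out. The causes of the changes below were not tested. Counts of own-read lines include the shared lines.

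Of the deposited members, those higher in Tet2-/- than in WT at D6 numbered 1, but 2 with DESeq2 or its size factors, with the highest line per symbol, or with WT and Tet2-/- alone, and 0 with library totals, no filter, summed lines or the replicate block. Without a filter, 1 member was lower in Tet1-/- between days and 1 higher in DKO, as it was with library totals. Without a fold threshold, 24 were lower in Tet2-/- between days. Of own-read lines, those higher at D0 in Tet2-/- numbered 1 with the replicate block and 4 in a fit of 2 genotypes, and in TKO 0 with either and 2 without a fold threshold. DESeq2 called 1 line lower in TKO at D6, and 1 higher in the Tet2-/- interaction, as did the block. Between days, WT had 7 higher with library totals, and Tet1-/- had 3 higher with the block and 3 lower with the block or library totals. The TKO interaction had 1 lower with the shared gamma part from the -g lines.

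With each library left out in turn, deposited members called ranged from 0 to 2 (TKO at D0, higher), 0 to 3 and 0 to 4 (Tet2-/- at D6, higher and lower), 0 to 2 and 0 to 1 (DKO between days, higher and lower), 0 to 2 (TKO between days, lower), 0 to 21 (Tet2-/- interaction, lower, with 21 reached without WT clone O4.2 at D6) and 0 to 1 (TKO interaction, lower). Own-read lines ranged from 0 to 4 (Tet2-/- at D0, higher), 0 to 2 (TKO at D0, higher and lower), 0 to 1 and 0 to 4 (Tet2-/- at D6, higher and lower), 0 to 2 (TKO at D6, lower), 4 to 7 (WT between days, higher), 3 to 5 (Tet1-/- between days, higher and lower), 2 to 5 (Tet2-/- between days, lower), 1 to 6 (DKO between days, lower), 0 to 1 and 2 to 7 (TKO between days, higher and lower), 0 to 1 and 1 to 4 (Tet2-/- interaction, higher and lower) and 0 to 5 (TKO interaction, lower).

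Within a day, samples share only a label number: deviations of same-numbered samples correlated at -0.072 to 0.312 at D0 and -0.377 to 0.312 at D6. The replicate block lost 2 deposited calls and 6 own-read calls, among them *Pcdha4* in Tet2-/- at D6 (1.14, adjusted p = 0.0617), *Pcdhb2* (1.55, adjusted p = 0.191), *Pcdhga1* (-0.86, adjusted p = 0.0515) and *Pcdhga8* (-1.57, adjusted p = 0.0867) in Tet1-/- between days. The *Pcdhga8* call in Tet1-/- was lost in 15 of 24 fits with 1 library left out.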
